A study of Mus musculus with 18 samples.

Results

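Il7r, Il2ra, Il15ra, Il2rb and Il21r encode the cytokine-binding chains that join the common gamma chain to make the receptors for IL-7, IL-2, IL-15 and IL-21. They were chosen by gene symbol from the receptor chains of this family. The IL-4 receptor chain Il4ra, the IL-9 receptor chain Il9r and the common chain Il2rg are not among them. The 5 genes were measured by 9 probe sets of the 45101 features on the array, 2 each for Il7r, Il2ra, Il2rb and Il15ra and 1 for Il21r, and they are 5 of 18194 genes with a probe set of their own. All 5 passed the filter on low values and were tested among 13770 genes. RNA came from CD8 T cells of F5 mice, whose T cells carry a transgenic receptor, on the C57Bl/6 background, sorted from the spleen by flow cytometry. The naive groups, of 2 arrays each, are cells straight from sorting (ex vivo), cells kept for 20 hours in IL-7, and cells kept as long in IL-7 plus IL-4. Memory cells, made by immunising such mice repeatedly with the NP68 peptide and taken at day 45, form 5 groups: 4 ex vivo arrays, and 2 arrays each of cells cultured for the same time without cytokine, in IL-7, in IL-4, or in both. IL-7 was given at 10 ng/mL and IL-4 at 20 ng/mL. No naive cells in medium or in IL-4 alone are among these groups, and all groups, controls included, came from F5 mice. Values are RMA levels on the log2 scale, so a difference of 1 is a doubling, and levels are set side by side only within a probe set.

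Each of these receptors signals through the kinases JAK1 and JAK3 bound to the receptor chains, and from there mainly through STAT5 (IL-2, IL-7, IL-15) or STAT3 (IL-21). Il7r encodes CD127, the IL-7-binding chain that keeps naive and memory T cells alive and that is known to be turned down in T cells by the cytokines it serves. Il2ra encodes CD25, which raises the affinity of the receptor for IL-2 and is itself a STAT5 target. Il2rb encodes CD122, the signalling chain shared by IL-2 and IL-15 and a known mark of memory CD8 T cells. Il15ra encodes the chain that holds IL-15 and presents it to neighbouring cells, and Il21r encodes the chain for IL-21, which supports CD8 T cells during long infections.

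The stretches before Il2ra, Il15ra and Il7r are shown because the IL-4 results described further on turn mostly on these 3 genes. Il2ra (chr2:11642792-11693194) and Il15ra (chr2:11705172-11733985) are neighbours, 11977 bases apart, and Il7r lies at chr15:9506159-9529941. Sequences and positions are from RefSeq, build GRCm38.p6, 5′ to 3′ on the strand of the gene, and end at the base before the annotated gene (Il2ra chr2:11642542-11642791, plus strand; Il15ra chr2:11705043-11705171, plus strand; Il7r chr15:9529942-9530126, minus strand). Capitals mark a match to a searched motif.
Il2ra: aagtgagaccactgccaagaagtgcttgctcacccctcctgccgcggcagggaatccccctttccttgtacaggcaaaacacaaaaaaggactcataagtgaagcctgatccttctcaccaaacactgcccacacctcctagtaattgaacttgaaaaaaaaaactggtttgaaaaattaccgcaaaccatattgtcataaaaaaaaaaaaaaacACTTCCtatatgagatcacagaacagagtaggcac
Il15ra: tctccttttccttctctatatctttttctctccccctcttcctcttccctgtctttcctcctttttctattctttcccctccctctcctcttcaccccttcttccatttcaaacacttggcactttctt
Il7r: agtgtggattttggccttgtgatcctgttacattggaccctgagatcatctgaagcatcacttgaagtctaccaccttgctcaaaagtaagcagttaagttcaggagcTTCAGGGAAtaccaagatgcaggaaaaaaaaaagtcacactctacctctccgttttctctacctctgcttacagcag
The motifs searched, on both strands and with overlaps allowed, over the 250 bases before each start that RefSeq lists were TTCNNNGAA (the type bound by STAT5), the STAT6 type motif (like the former, with 1 more base between its arms), TGANTCA (the AP-1 type), GTAAACA (the FOXO type) and GGAAGT (the ETS type). The Il7r stretch holds TTCAGGGAA, a match of the STAT5 type that 7.02% of 32851 such windows hold, and, nearer the start and not shown, an ETS-type match, a type that 19.7% hold. The Il2ra stretch holds ACTTCC, an ETS-type match 35 bases before the start. The Il15ra stretch holds none of the 5, while a second listed start has an AP-1 type match (6.75% of windows), and the window of Il21r has a FOXO-type match (3.17%). No window held a match of the STAT6 type (5.85% of windows). A match describes letters in a window and was not tied to any value here, and Il2rb is named only.

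A few arrays did not group as labelled. Memory medium array 2 was closest to an ex vivo array, memory ex vivo array 2 (r = 0.995 over the genes tested, SD of the difference 0.239), and far from medium array 1 (r = 0.956), whereas medium array 1 was closest to memory IL-7 array 1 (r = 0.996). In all other groups the lowest correlation between arrays of a group was 0.975, in naive cells with IL-4 and IL-7, where each array was closer to the naive IL-7 array of its own number (r = 0.978 and 0.989) than to its partner. Results that rest on memory medium array 2 are given with and without it, and it enters the spread of every comparison. The 3' minus 5' difference of the Gapdh control, a sign of RNA integrity and amplification, was 2.07 to 2.69 on ex vivo arrays, 2.35 on memory medium array 2 and 2.67 to 3.36 on the other cultured arrays. That of the Actb control was 1.95 to 2.07, 1.87 and 1.63 to 2.25 on the same arrays. All 7 measured CD8 T cell markers were above 4.06, the filter on low values, in every group, with array means of the list between 11.5 and 12.2. The labels call the naive cells naive CD8 memory cells. Of the memory list, mean Ccl5 was 5.84 in naive and 11.96 in memory cells ex vivo, and mean Cd44 6.62 and 9.81. Its other genes were closer, with Itgb1 at 7.43 and 7.77, Id2 at 10.52 and 10.64 and S100a4 at 3.30 and 4.12. Ccl5 and S100a4 were called higher in memory cells. Of the naive list, mean Ccr7 was 11.45 and 11.64 and mean Lef1 11.4 and 10.8, neither called. The titles call only the ex vivo arrays biological replicates, so the p-values for cultured cells measure the spread between arrays, which may be technical. In bulk RNA, fewer cells with a transcript and less transcript per cell cannot be told apart.

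**Figure D1:**
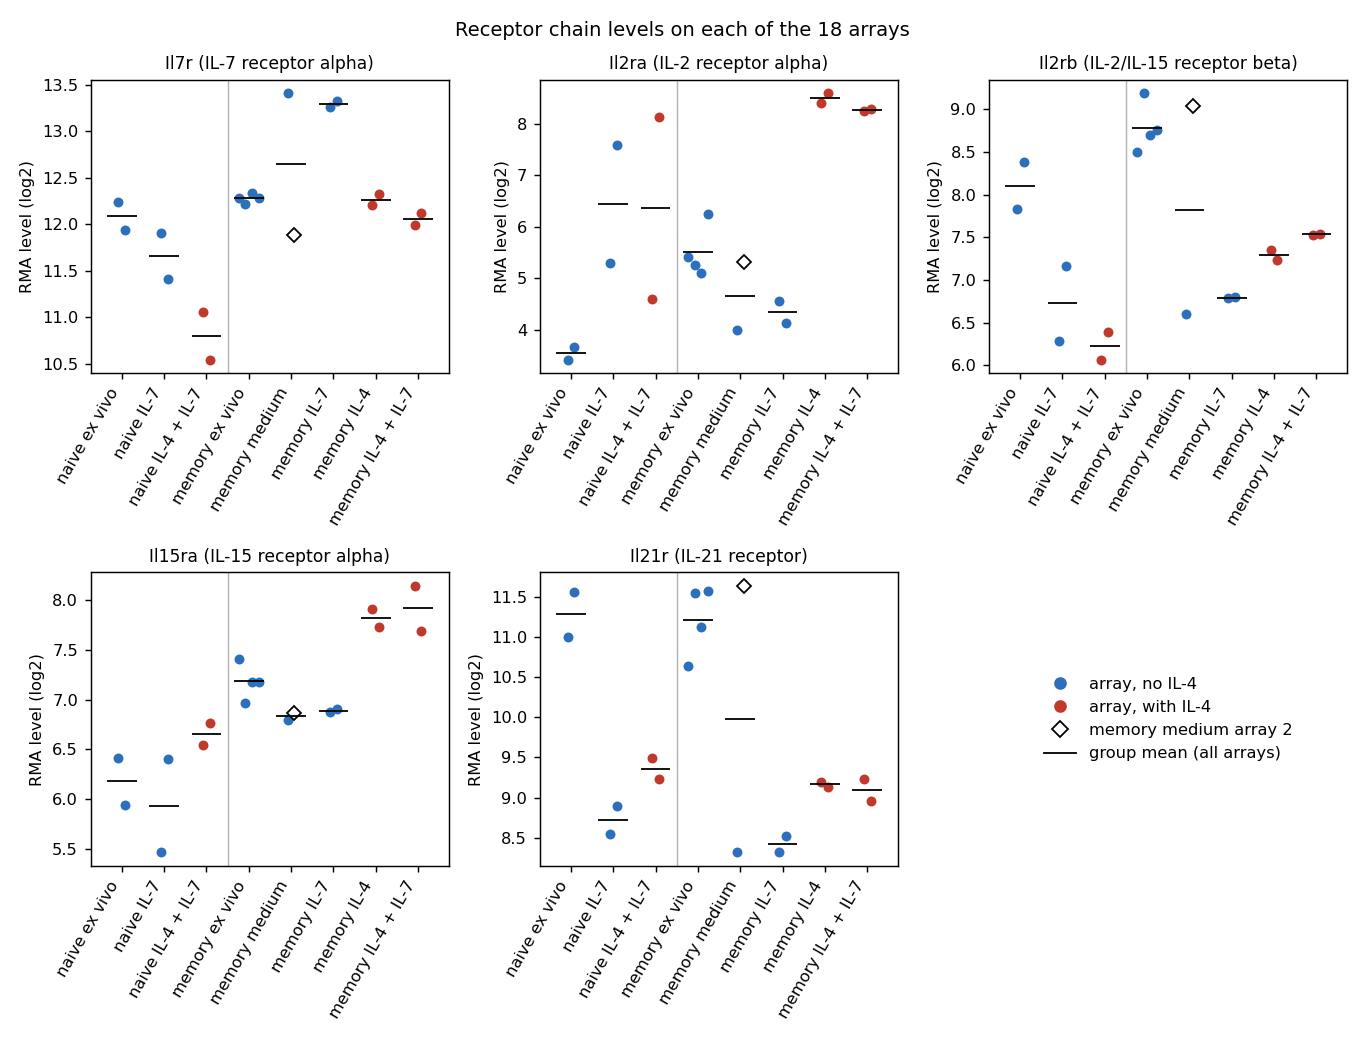
RMA level (log2) of the probe set that stands for each gene on each of the 18 arrays, by group; red points had IL-4, the open diamond is memory medium array 2 and lines are group means over all arrays. Il2ra and Il15ra are highest in memory cells with IL-4, at 8.26 to 8.60 and 7.69 to 8.14, and Il21r is highest ex vivo and on memory medium array 2.

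IL-4 raised Il2ra in memory cells, by 3.92 with IL-7 present and 3.85 without. Il15ra was 1.02 and 0.99 higher and Il7r differed by -1.24 with IL-7 present, and these passed the test only in part of the settings given below. Il2rb and Il21r passed it with all arrays in no IL-4 comparison. Of the 5 genes, 1 was called higher and 0 lower with IL-4 in memory cells kept in IL-7, where 1.81% of all genes were called (1.21% higher, 0.595% lower). With IL-4 alone against medium 1 was higher and 0 lower (1.94% of all genes called, 1.26% higher and 0.675% lower), and with IL-4 in naive cells kept in IL-7 0 were called (1.26%, with 0.879% higher and 0.378% lower). The gene called was Il2ra in both memory comparisons. Leaving out memory medium array 2, 3 of 5 were called in memory cells kept in IL-7 (Il7r, Il2ra and Il15ra; 3.91% of all genes), 2 of 5 with IL-4 alone (Il7r and Il2ra; 1.54%) and 1 of 5 in naive cells (Il7r; 2.11%). The median difference of the 5 genes was 0.74 in memory cells kept in IL-7 against 0.082 over all genes tested, -0.38 against 0.060 with IL-4 alone, and -0.084 against -0.00423 in naive cells. In naive cells the count at an unadjusted p under 0.05 was 2 of the 5 (Il7r and Il15ra), against 8.73% of all genes. The IL-4 effect averaged over both memory comparisons, a contrast chosen after the values were seen, called Il2ra (3.88, SE 0.62, adjusted p = 0.00164 by limma) and Il15ra (1.01, SE 0.19, adjusted p = 0.00498), where 5.8% of all genes were called. Without memory medium array 2 it also called Il7r (-1.19, SE 0.16, adjusted p = 0.000245; 6.26% of genes).

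**Figure D2:**
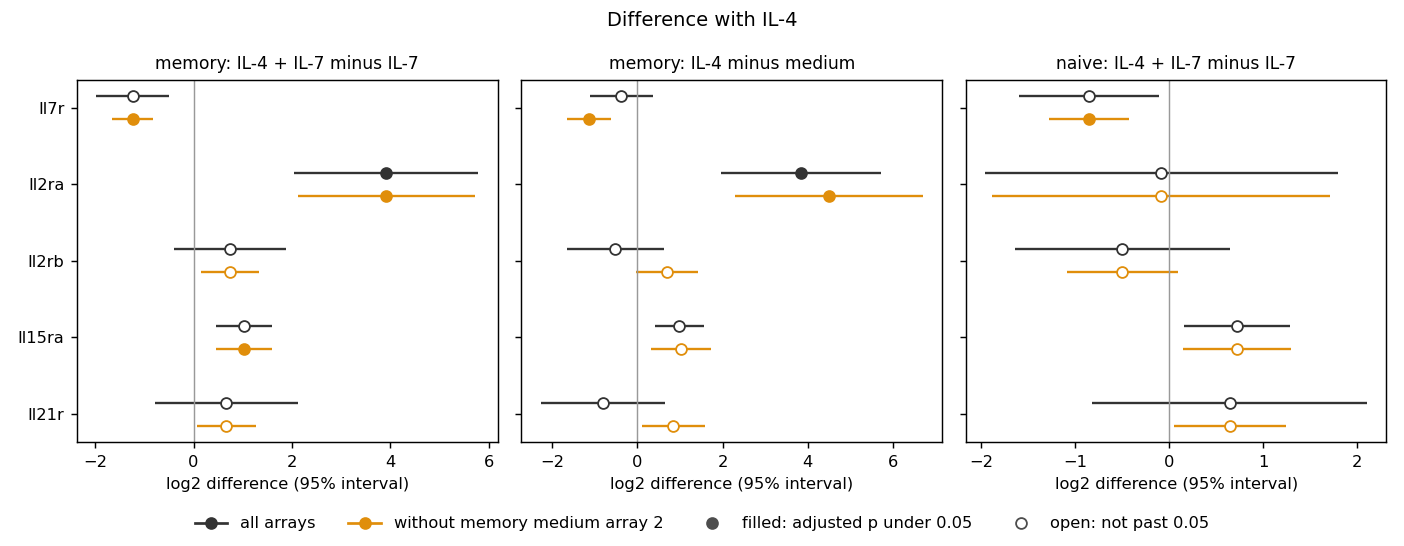
Difference with IL-4 (log2) of the 5 genes with its 95% interval in 3 comparisons, with all arrays (black) and without memory medium array 2 (orange); filled points have an adjusted p under 0.05. Il2ra lies at 3.92 and 3.85 in memory cells and at -0.084 in naive cells, and leaving out the array turns Il2rb and Il21r from below to above 0 in the middle panel.

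Il2ra, the high-affinity IL-2 receptor chain, had its highest levels in memory cells with IL-4. The memory arrays with IL-4 and IL-7 read 8.26 and 8.28, and those with IL-4 alone 8.41 and 8.60. The memory arrays with IL-7 alone read 4.56 and 4.14, and the medium arrays 4.00 and 5.32. The groups with and without IL-4 did not overlap, and the higher of the medium arrays is array 2. Il2ra was 15.1-fold higher with IL-4 in memory cells kept in IL-7 (log2 difference 3.92, SE 0.88, 95% interval 2.04 to 5.79, adjusted p = 0.0351 by limma, n = 2 and 2). With IL-4 alone it was 14.4-fold higher than in medium (3.85, SE 0.88, adjusted p = 0.0363), and 4.50 higher without memory medium array 2 (adjusted p = 0.0429). Medium array 1, which the latter rests on, lies under the filter value of 4.06, so that the size of these folds is uncertain. The first call was lost without any single array of the 4 compared (adjusted p = 0.135 to 0.224) and the second without IL-4 array 1 or array 2 (adjusted p = 0.198 and 0.236), with differences of 3.70 to 4.13 and 3.75 to 3.94. The other Il2ra probe set moved less, by 1.01 in IL-7 (adjusted p = 0.328) and 0.78 without it (adjusted p = 0.493), and with the mean of both probe sets the differences were 2.46 and 2.31 (adjusted p = 0.0809 and 0.105).

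In cultured naive cells the Il2ra level differed more between the arrays of a group than between IL-7 with and without IL-4. The arrays read 3.42 and 3.67 ex vivo, 5.30 and 7.58 with IL-7, and 4.59 and 8.13 with IL-4 and IL-7. Array 2 was the higher in both cultures, by 2.28 with IL-7 and 3.53 with both cytokines, and 34 and 14 of 13770 genes had a larger difference between these arrays. The other probe set showed the same order, with 5.01 and 6.17 in IL-7 and 4.80 and 6.28 in both. The IL-4 difference in naive cells was -0.084 (SE 0.88, 95% interval -1.96 to 1.79, adjusted p = 0.99), 1.05 without array 2 in IL-7 and 1.68 without array 1 in both cytokines. The IL-4 difference was 4.00 larger in memory than in naive cells (SE 1.24, 95% interval 1.35 to 6.65), and this did not pass the test (adjusted p = 0.342, where 0.0726% of all genes passed, 0.0436% higher and 0.029% lower), except without naive array 2 of both cytokines (5.77, adjusted p = 0.0124). Against ex vivo cells, IL-7 culture of naive cells raised Il2ra 7.45-fold (2.90, SE 0.88, adjusted p = 0.0438). This call was lost without IL-7 array 2 (1.76, adjusted p = 0.365) and without either ex vivo array (adjusted p = 0.152 and 0.153). Both ex vivo levels lie under the filter value of 4.06, which leaves the size of the fold uncertain. The other probe set rose by 0.91 (adjusted p = 0.219 by limma), and the mean of both probe sets by 1.90 (adjusted p = 0.0724). The Il2ra call was also lost without the filter, with arrays centred on their medians, and with a trended and robust variance (adjusted p = 0.0548, 0.052 and 0.0611). Of the 14 feedback and target genes described further on, Cish differed most between the arrays of each naive culture, by 0.86 and 1.17. Lta read 9.13 and 9.14 with IL-7 and 7.49 and 8.57 with both.

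Il15ra, the IL-15-presenting chain, stood with Il2ra in memory cells with IL-4. The memory arrays with both cytokines read 8.14 and 7.69 and those with IL-4 alone 7.91 and 7.73, against 6.87 and 6.91 with IL-7 and 6.79 and 6.87 in medium. All 4 arrays with IL-4 lay above all 4 cultured memory arrays without it, memory medium array 2 included. The difference was 1.02 in IL-7 (SE 0.27, 95% interval 0.46 to 1.59, adjusted p = 0.0683) and 0.99 without it (SE 0.27, adjusted p = 0.0813), and neither passed. Without memory medium array 2 the first passed (adjusted p = 0.0477) and the second did not (1.02, adjusted p = 0.215). With the mean of its probe sets Il15ra passed in both, at 0.67 (adjusted p = 0.0389 and 0.0408). In naive cells the arrays read 5.47 and 6.41 with IL-7 and 6.55 and 6.77 with both, a difference of 0.72 (SE 0.27, adjusted p = 0.365) between groups that did not overlap. The IL-4 differences of memory and naive cells were 0.30 apart (95% interval -0.50 to 1.11, adjusted p = 0.794). The other Il15ra probe set stayed between 4.45 and 5.33 on all arrays and differed by 0.32 and 0.35 in the memory comparisons and by -0.19 in naive cells.

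Il7r, the IL-7-binding chain, was lower with IL-4 in the cells kept in IL-7. Memory arrays read 13.26 and 13.33 with IL-7 and 11.99 and 12.12 with both cytokines, and naive arrays 11.90 and 11.41 against 11.06 and 10.55. The groups did not overlap in either cell type. The difference was -1.24 in memory cells (SE 0.35, 95% interval -1.98 to -0.50, adjusted p = 0.0933) and -0.85 in naive cells (SE 0.35, 95% interval -1.59 to -0.11, adjusted p = 0.465), neither past the test. Both passed when memory medium array 2, which is in neither comparison, was left out of the spread (adjusted p = 0.00251 and 0.0383). With IL-4 alone the memory arrays read 12.20 and 12.33, against 13.41 and 11.88 in medium, so the difference was -0.38 (adjusted p = 0.71) with both medium arrays, -1.14 (adjusted p = 0.0263) with array 1 alone and 0.38 (adjusted p = 0.344) with array 2 alone. The IL-4 differences of memory and naive cells were -0.39 apart (95% interval -1.44 to 0.66, adjusted p = 0.797). The other Il7r probe set differed by -1.69 in memory cells kept in IL-7 (adjusted p = 0.134), by -1.05 with IL-4 alone (adjusted p = 0.405) and by -0.52 in naive cells (adjusted p = 0.877), where its arrays overlapped.

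Il2rb, the shared signalling chain, and Il21r differed with IL-4 by less than 1 in each comparison. In memory cells kept in IL-7, Il2rb read 7.53 and 7.54 with IL-4 and 6.79 and 6.80 without. Il21r read 9.23 and 8.96 with IL-4 and 8.33 and 8.52 without. These groups did not overlap, but the differences of 0.74 (SE 0.53, adjusted p = 0.558) and 0.67 (SE 0.68, adjusted p = 0.686) did not pass. Their spread includes memory medium array 2, which is not in this comparison. With only the groups compared Il2rb passed (adjusted p = 0.0243 by limma), and Il21r passed under no alternative. Memory medium array 2 read 9.03 for Il2rb and 11.64 for Il21r, against 6.60 and 8.32 on medium array 1, beside ex vivo memory ranges of 8.50 to 9.19 for Il2rb and 10.63 to 11.57 for Il21r. With IL-4 alone the differences were therefore -0.52 and -0.81 (adjusted p = 0.753 and 0.678) with both medium arrays, 0.69 and 0.85 (adjusted p = 0.615 and 0.431) without array 2, and -1.74 and -2.47 (adjusted p = 0.00272 and 0.000265) without array 1. In naive cells they were -0.50 (95% interval -1.64 to 0.64) and 0.64 (95% interval -0.82 to 2.11).

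In memory cells IL-7 called 0 of the 5 genes, without IL-4 and with it, and 0% of all genes in either comparison. At an unadjusted p under 0.05, limma gave 1 of the 5 without IL-4 (Il21r, -1.55) against 5.84% of all genes, and 0 with IL-4 against 2.08%. Leaving out memory medium array 2, the differences with IL-7 alone were -0.12 for Il7r, 0.35 for Il2ra, 0.19 for Il2rb, 0.094 for Il15ra and 0.11 for Il21r, and 0.625% of all genes had an unadjusted p under 0.05. Leaving out medium array 1 instead leaves only medium array 2, which was closest to an ex vivo array. The differences with IL-7 alone were then 1.41 for Il7r, -2.24 for Il2rb and -3.21 for Il21r. Added to IL-4, IL-7 gave differences between -0.24 (Il2ra) and 0.24 (Il2rb). The interaction of both cytokines called 0 of the 5 and 0% of all genes (unadjusted, 0 of the 5 and 4.72%), with a value for Il7r of -0.86 (95% interval -1.91 to 0.19), and -0.093 without memory medium array 2. Without medium array 1 the interaction was -1.62 for Il7r, 2.48 for Il2rb and 3.14 for Il21r.

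Straight after sorting, memory cells had more Il15ra than naive cells, and 1 of the 5 genes was called (1.93% of all genes, 1.02% higher and 0.908% lower). Il15ra read 7.41, 6.97, 7.18 and 7.18 on the memory arrays and 6.42 and 5.94 on the naive arrays, with no overlap. It was 2.00-fold higher in memory cells (log2 difference 1.003, SE 0.23, adjusted p = 0.0385; without memory medium array 2 adjusted p = 0.0251, 4.39% of all genes called), and its other probe set was 0.57 higher (adjusted p = 0.0618). The call was lost without either naive array (adjusted p = 0.0863 and 0.326) and without memory array 1, 3 or 4 (adjusted p = 0.103, 0.0666 and 0.0705). Il2ra read 5.41, 5.26, 5.10 and 6.24 in memory cells and 3.42 and 3.67 in naive cells. This difference of 1.96 (SE 0.76, 95% interval 0.33 to 3.58, adjusted p = 0.21) did not pass, although the groups were apart. Il2rb, read as a mark of memory cells, was 8.50 to 9.19 in memory cells with a median of 8.73 and 7.83 and 8.38 in naive cells, 0.68 higher (SE 0.46, adjusted p = 0.46). Il7r (0.19, 95% interval -0.45 to 0.83) and Il21r (-0.064, 95% interval -1.33 to 1.203) overlapped between the cell types. Beside these values, the array mean of the dendritic cell list (Itgax, Flt3, H2-Aa, H2-Ab1, Cd74) was 5.22 to 6.21 in memory and 4.79 to 4.85 in naive cells ex vivo, that of the B cell list 5.41 to 5.97 and 4.95 to 4.96, and that of the NK cell list 4.63 to 5.31 and 4.19 to 4.24. Mean Alas2, a red cell gene, was 9.04 and 5.84. The other measured red cell gene, Hba-a1, had means of 3.45 in memory and 3.46 in naive cells ex vivo. Both means were under the filter value, and Hba-a1 was not tested. The part of other cells in the difference of Il15ra was not tested.

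The cell types were also compared after culture. In IL-7, Il7r was 1.64 higher in memory than in naive cells (SE 0.35, adjusted p = 0.0195), and it was the 1 gene of the 5 called (2.7% of all genes, 1.27% higher and 1.43% lower). Its call was lost without the second naive array (adjusted p = 0.231) or without memory IL-7 array 1 or 2 (adjusted p = 0.122 and 0.151). In IL-4 and IL-7, Il15ra was 1.25 higher in memory cells (SE 0.27, adjusted p = 0.02), the 1 gene of the 5 called (3.81% of all genes, 1.61% higher and 2.2% lower). Il7r was 1.25 higher (adjusted p = 0.0591) and Il2rb 1.31 higher (adjusted p = 0.169), and both passed without memory medium array 2 (adjusted p = 0.00224 and 0.0133), where 3 of the 5 were called against 7.47% of all genes. The Il15ra call in both cytokines was lost without naive array 1 (adjusted p = 0.0998), memory array 1 (adjusted p = 0.096) or memory array 2 (adjusted p = 0.0714).

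Il21r was lower after IL-7 culture than ex vivo in both cell types, and Il2rb in memory cells. Of the 5 genes, 1 was higher and 2 lower in memory cells after IL-7 culture than ex vivo (19.9% of all genes called, 11.1% higher and 8.85% lower). In naive cells 1 was higher and 1 lower (12.8%, with 7% higher and 5.8% lower). Without memory medium array 2 the same 3 were called in memory cells (26.9% of all genes), and in naive cells 3 (20.1%), with Il2rb added. Il21r fell from 10.63, 11.54, 11.13 and 11.57 on the ex vivo memory arrays to 8.33 and 8.52 in IL-7. In naive cells it fell from a mean of 11.28 ex vivo, with the higher array at 11.56, to 8.54 and 8.89. No IL-7 array overlapped the ex vivo arrays of its cell type. The log2 difference was -2.79 in memory cells (SE 0.59, adjusted p = 0.00815) and -2.56 in naive cells (SE 0.68, adjusted p = 0.0271), and these were -0.23 apart (95% interval -2.16 to 1.71, adjusted p = 0.944). Il2rb fell by 1.99 in memory cells (SE 0.46, adjusted p = 0.0113), to 6.79 and 6.80, and its other probe set fell by 1.44 (adjusted p = 0.0127). In naive cells Il2rb read 6.29 and 7.17 in IL-7, and its difference of -1.38 (adjusted p = 0.107) passed without memory medium array 2 (adjusted p = 0.00284) and with only the groups compared (adjusted p = 0.0356). Il7r rose by 1.01 in memory cells (SE 0.30, adjusted p = 0.03), from 12.28, 12.22, 12.33 and 12.29 on the ex vivo arrays to 13.26 and 13.33 on the IL-7 arrays. In naive cells Il7r differed by -0.44 (SE 0.35, adjusted p = 0.477). The difference between these, 1.45 (SE 0.46), missed the test (adjusted p = 0.277; 0.0508% of all genes called, 0.00726% higher and 0.0436% lower) and passed without memory medium array 2 (adjusted p = 0.022, 0.922% of all genes called). Il2ra differed the other way, by -1.16 in memory cells (adjusted p = 0.302) against its rise in naive cells, a difference of -4.05 (SE 1.16, adjusted p = 0.225). Il15ra differed by -0.29 and -0.24, neither past the test.

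**Figure D3:**
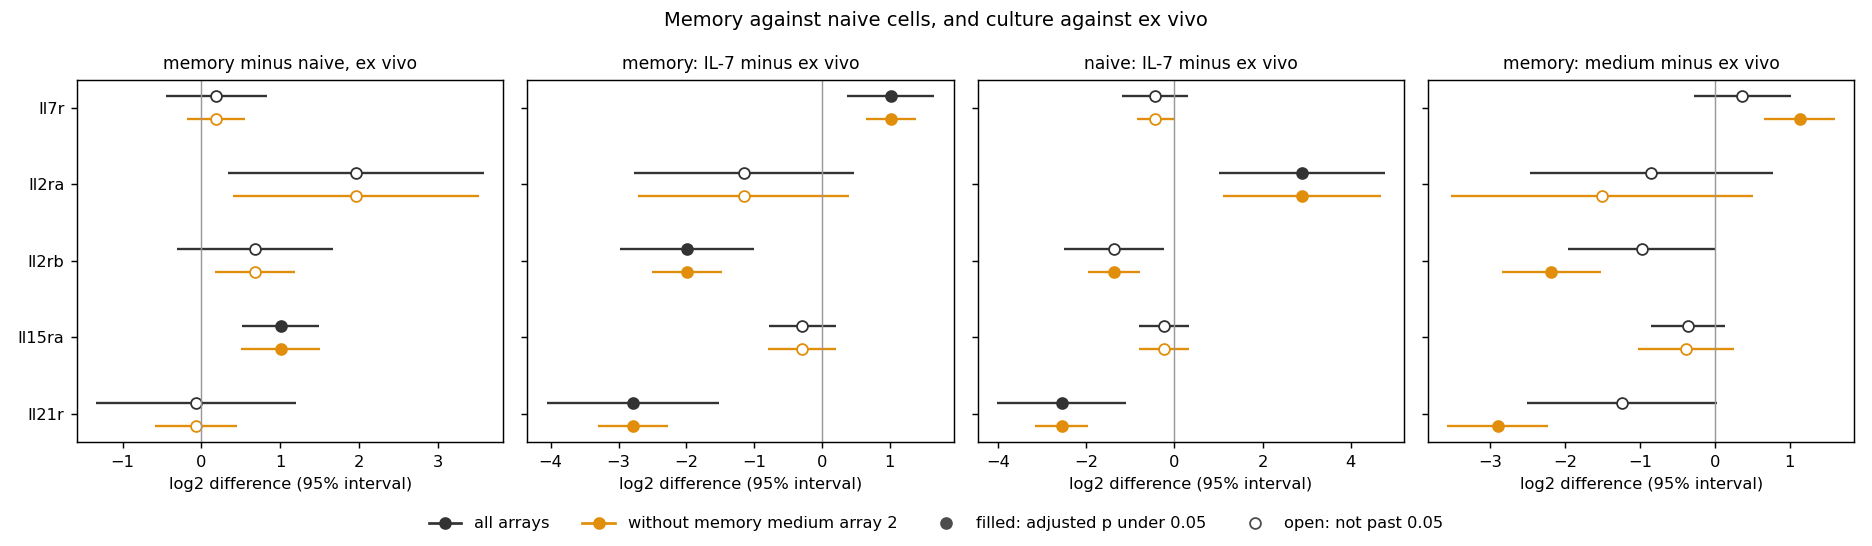
Log2 difference of the 5 genes with its 95% interval for memory against naive cells ex vivo and for cultured against ex vivo cells, with all arrays (black) and without memory medium array 2 (orange); filled points have an adjusted p under 0.05. Il21r lies at -2.79 and -2.56 after IL-7 culture of memory and naive cells, and in medium at -1.24 with all arrays and -2.90 without memory medium array 2.

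Medium alone against ex vivo memory cells called 0 of the 5 genes and 0% of all genes with both medium arrays (limma; at an unadjusted p under 0.05, 0 of the 5 and 9.91% of all genes). Without array 2, 3 of the 5 were called against 16.4% of all genes: Il21r at -2.90 (adjusted p = 4.88e-05), Il2rb at -2.18 (adjusted p = 0.000344) and Il7r at 1.13 (adjusted p = 0.00304). These values stand beside -2.79, -1.99 and 1.01 in IL-7, and both sets share the ex vivo arrays. The IL-7 calls in memory cells were lost without either IL-7 array (adjusted p = 0.0818 and 0.075 for Il21r, 0.0933 and 0.092 for Il2rb, 0.147 and 0.169 for Il7r), and that of Il7r also without ex vivo array 1, 2 or 4 (adjusted p = 0.0501, 0.0591 and 0.0555). That of Il21r in naive cells was lost without any single array of the 4 (adjusted p = 0.0679 to 0.161). The Gapdh 3' minus 5' difference also separates ex vivo from most cultured arrays, while that of Actb overlaps between them. The part of these controls was not tested. Some markers of other cells were also called in memory cells after IL-7 culture, where 11.1% of all genes were called higher and 8.85% lower. Called lower were the B cell gene Ms4a1 (mean 4.85 ex vivo and 3.42 in IL-7), the dendritic cell gene H2-Aa (6.26 and 3.64) and the NK cell gene Tyrobp (5.496 and 4.26), 1 of the tested genes of each list. Ikzf4 of the CD4 or regulatory T cell list was called higher (6.03 and 6.85). The B cell gene Cd79b had means of 7.76 and 8.39 and was not called. The part of other cells was not tested.

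The order of the group means, from high to low, differed from gene to gene. For Il7r it ran from memory cells in IL-7 (mean 13.29) to naive cells in both cytokines (10.80), and each of the 5 highest groups overlapped with the next group down. For Il2ra it ran from memory cells in IL-4 (8.50) and in both (8.27) to naive cells ex vivo (3.55), and the 4 groups from naive cells in IL-7 to memory cells in medium each overlapped with the next group down. For Il15ra memory cells in both cytokines (7.91) and in IL-4 (7.82) overlapped with each other at the top, and naive cells ex vivo (6.18) and in IL-7 (5.94) at the bottom. Il2rb was highest in memory cells ex vivo (8.78) and lowest in naive cells in both cytokines (6.23). Il21r was highest in naive (11.28) and memory cells (11.22) ex vivo, which overlapped, and lowest in memory cells in IL-7 (8.42). The span of group means was widest for Il2ra, at 4.96, and narrowest for Il15ra, at 1.98.

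Across the 18 arrays, which share their groups, Il2rb and Il21r varied together (Pearson r = 0.88) and Il2ra with Il15ra (r = 0.62), while Il7r and Il2ra ran against each other (r = -0.40). These correlations describe the arrays and mostly reflect the differences between groups. The 2 probe sets of a gene had r of 0.90 for Il7r, 0.91 for Il2ra, 0.92 for Il2rb and 0.71 for Il15ra. The 5 genes most like Il2ra by Pearson r over the 18 arrays were S100a1 (r = 0.90), Ifi35, Psmf1, Aimp1 and Il18bp. Those most like Il15ra were Cdh1 (r = 0.90), Ikzf3, Smpdl3b, Prdm1 and Znf41-ps. Those most like Il7r were Sntb1 (r = 0.92), Akap13, Cdc14b, Slc25a24 and Myo1f. Those most like Il2rb were Lmna (r = 0.96), 1810055G02Rik, Pvr, Myl4 and Atg10, and those most like Il21r were Gla (r = 0.99), Itpkb, Ppp2r2d, Cwc25 and Tfip11. Without memory medium array 2 the 5 names stayed the same for Il7r, Il2ra, Il15ra and Il21r, and 4 of 5 for Il2rb.

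Among the other parts of the pathway, the receptor partners were led by Il4ra, the IL-4-binding chain, which rose by 3.05 with IL-4 in memory cells kept in IL-7 (SE 0.60, adjusted p = 0.0175) and read 12.64 against 9.59. Of the 3 partners tested (Il4ra, Crlf2 and Il13ra1) it was the one called, with a list median of 0.57 (1.21% of all genes called higher and 0.595% lower). The IL-9 receptor chain Il9r did not pass the filter and was not tested. With IL-4 alone Il4ra was 1.95 higher (adjusted p = 0.14) and in naive cells 2.02 higher (adjusted p = 0.169), where the arrays read 13.25 and 11.98 against 10.67 and 10.52. Il4ra was called in all 3 comparisons once memory medium array 2 was left out. Il2rg was not analysed here, because no probe set carries its symbol alone. Of the 6 JAK and STAT genes tested, 0 were called in any of the 3 IL-4 comparisons (medians 0.39, -0.042 and 0.56), where 1.81%, 1.94% and 1.26% of all genes were called. Without memory medium array 2, 1 of them, Jak3, was called in naive cells (2.11% of all genes called). Of the 6 ligand genes, Il9 alone passed the filter, and Il2, Il4, Il7, Il15 and Il21 were not tested.

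Several feedback and target genes of these receptors rose with IL-4 in memory cells. Of 14 tested, 4 were called higher and 0 lower in IL-7 (list median 1.09 against 0.082 over all genes, of which 1.21% were called higher and 0.595% lower). These were the SOCS family inhibitors Socs2 (2.62, adjusted p = 0.00697), Socs1 (1.60, adjusted p = 0.0132) and Cish (2.98, adjusted p = 0.0196), and the cytokine gene Lta (1.97, adjusted p = 0.0119). With IL-4 alone 6 were higher and 0 lower (median 1.22; 1.26% of all genes higher and 0.675% lower): Socs2 (3.34, adjusted p = 0.00116), Socs1 (1.46, adjusted p = 0.0229), Lta (1.98, adjusted p = 0.011), the survival gene Bcl2 (2.04, adjusted p = 0.0109), the growth gene Myc (1.80, adjusted p = 0.023) and the repressor gene Prdm1 (0.89, adjusted p = 0.0345). In naive cells 1 was lower, the cytokine gene Osm (-1.26, adjusted p = 0.0467), and 0 were higher (median -0.030; 0.879% of all genes higher and 0.378% lower). Without memory medium array 2 the calls were 6 higher in memory cells kept in IL-7 (3.91% of all genes called), 5 higher with IL-4 alone (Bcl2, Cish, Pim2, Socs2 and Socs3; 1.54%) and 2 higher and 1 lower in naive cells (2.11%). Of the IL-4 calls in these lists, Socs2 with IL-4 alone stayed called without any single array of the 4 compared, and every other was lost without at least 1 of its arrays. Il4ra and Cish in IL-7 missed the threshold without each of the 4 (adjusted p = 0.0947 to 0.145 and 0.0655 to 0.204). In naive cells after IL-7 culture, 7 of the 14 rose against ex vivo cells and 1 fell (list median 0.63 against 0.073 over all genes, of which 7% were called higher and 5.8% lower), among them Lta by 3.84 (adjusted p = 0.000101), Socs2 by 2.96 (adjusted p = 0.00221), Myc by 2.64 (adjusted p = 0.00155) and Bcl2 by 2.42 (adjusted p = 0.0024). These 4 stayed called without any single array of the 4 compared. In memory cells the same culture raised 0 of the 14 and lowered 4 (median 0.050; 11.1% of all genes called higher and 8.85% lower): Cish (-1.72, adjusted p = 0.032), Socs3 (-1.88, adjusted p = 0.0294), Pim2 (-1.48, adjusted p = 0.0172) and Ccnd2 (-1.18, adjusted p = 0.0142), each lost without at least 1 of the 6 arrays. The difference between the culture responses of memory and naive cells passed the test for 1 of the 14, Lta (-3.79, SE 0.48, adjusted p = 0.00729). Of all genes 0.0508% were called in this comparison, 0.00726% higher and 0.0436% lower.

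**Figure D4:**
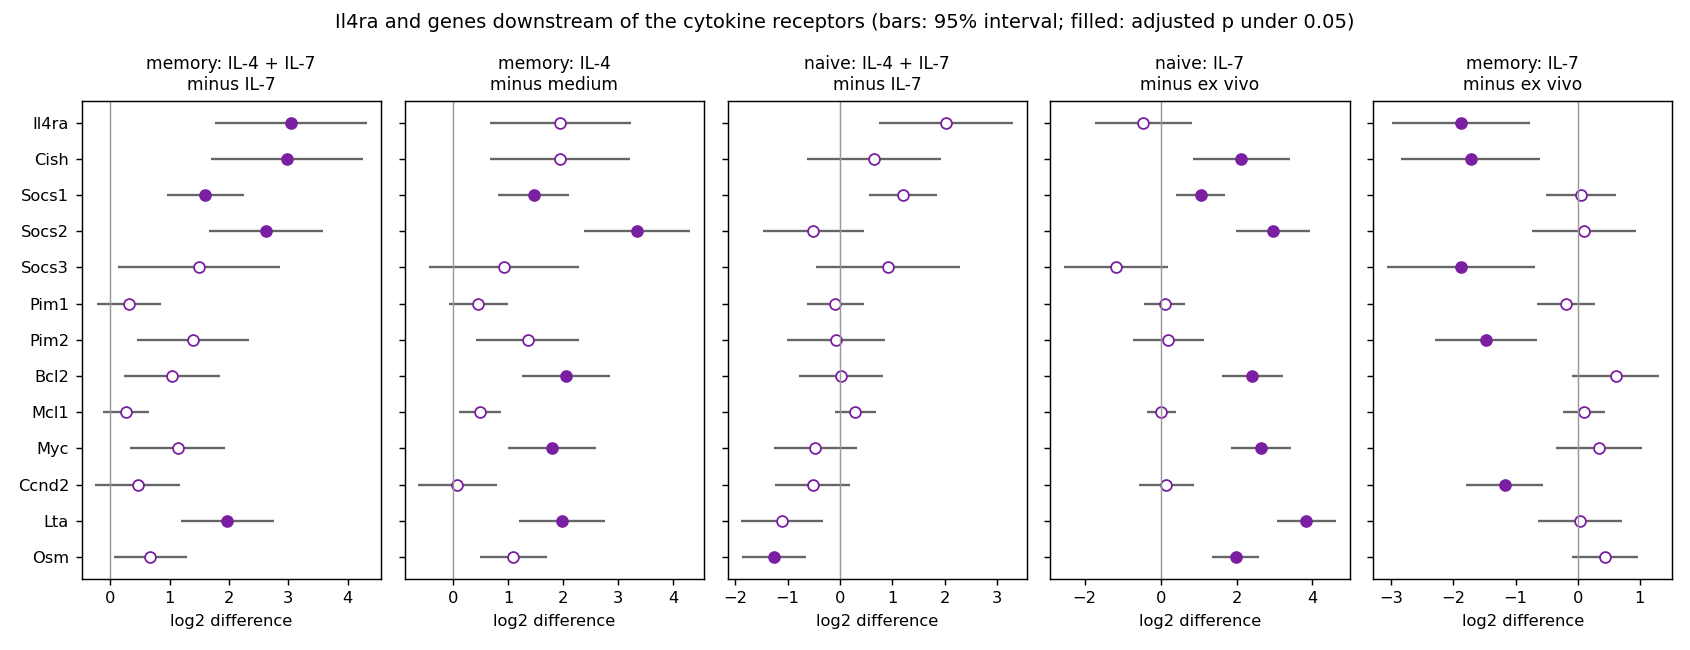
Log2 difference of Il4ra and 12 feedback and target genes, all arrays, in the 3 IL-4 comparisons and after IL-7 culture of naive and memory cells; bars are 95% intervals and filled points have an adjusted p under 0.05. Lta lies at 1.97 and 1.98 with IL-4 in memory cells and at 3.84 in naive cells after IL-7 culture.

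Of 10 transcription factors known to act on receptor genes of this family, 1 was called higher with IL-4 in memory cells kept in IL-7. This was Runx1 (0.89, adjusted p = 0.0465), where 1.21% of all genes were called higher and 0.595% lower. With IL-4 alone 0 were called (1.26% of all genes higher and 0.675% lower). In naive cells Gfi1, a repressor of Il7r in CD8 T cells, rose by 1.73 (SE 0.31, adjusted p = 0.0106), from a mean of 8.30 to 10.03, and Runx3 fell by 0.83 (adjusted p = 0.0368). Of all genes 0.879% were called higher and 0.378% lower in this comparison. Gfi1 had fallen by 1.97 in naive cells after IL-7 culture (adjusted p = 0.00243). Gfi1 was also called higher with IL-4 in memory cells kept in IL-7 when memory medium array 2 was left out. Ex vivo, Tbx21, which encodes T-bet, an activator of Il2rb, was 4.83 higher in memory than in naive cells (SE 0.67, adjusted p = 0.000879) and stayed called without any single array of the 6, and Prdm1 was 0.85 higher (adjusted p = 0.0199). After IL-7 culture of memory cells Foxp1, Gabpa and Runx3 were higher by 0.52 to 0.71, with 0 of the 10 lower (11.1% of all genes called higher and 8.85% lower). Foxp1 stayed called in 4 of the 6 fits that left out 1 of the arrays compared, and Gabpa and Runx3 in 1 each, and Gfi1 was called lower once memory medium array 2 was left out. In memory cells the array mean of the dendritic cell list was 4.84 to 5.24 with both cytokines and 4.57 to 4.77 with IL-7, and 4.76 to 5.16 with IL-4 and 4.76 to 5.97 in medium. That of the B cell list was 5.30 to 5.53 and 5.22 to 5.29, and 5.18 to 5.38 and 5.20 to 5.66. That of the CD4 or regulatory T cell list, a cell type known for Il2ra, was 5.33 to 5.42 and 5.06 to 5.07, and 5.20 to 5.39 and 4.69 to 4.89. Of its 3 tested genes Ikzf4 was called higher with IL-4 in both comparisons (means 8.08 and 6.85, and 7.94 and 6.14), while Ccl5 of the memory list was called lower in both. Mean Foxp3, the defining gene of regulatory T cells, was 3.45 and 3.32, and 3.37 and 3.23, all under the filter value. Of the B cell list, mean Ms4a1 was 3.73 with both cytokines and 3.42 with IL-7, and mean Cd79b was 8.64 and 8.39. Mean Cd22 was 5.89 and 5.68, Pax5 4.62 and 4.53, and Cd79a 4.19 and 4.26. With IL-4 alone and in medium, array 2 included, mean Ms4a1 was 3.97 and 4.26, Cd79b 8.19 and 8.13, and Cd22 5.74 and 5.94. There Cd79a was 4.04 and 4.35 and Pax5 4.47 and 4.47. Of the dendritic cell list, mean H2-Aa was 4.19 and 3.64 and mean Cd74 6.63 and 6.12 with both cytokines and with IL-7. With IL-4 alone and in medium, array 2 included, mean H2-Aa was 4.30 and 5.70 and mean Cd74 6.52 and 7.25. There Itgax was 4.68 and 4.46, Flt3 5.03 and 4.98, and H2-Ab1 4.27 and 4.44. The part of other cells in the differences was not tested.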

How the data were processed

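The 18 arrays were hybridised with RNA amplified and biotin-labelled, per the labels' protocols. The deposited values are log2 RMA levels made by the authors, 1 per probe set and array; the submitters' processing notes name RMA and limma without versions. Quantile normalisation in RMA gives all arrays a like distribution (medians 4.62 to 4.76), so a change shared by all genes cannot be seen. Gene symbols came from the platform annotation.

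The brightest probe set of a symbol stood for a gene, and genes above the 40th percentile (4.06) on at least 2 arrays were tested. The percentile is no measured background. Contrasts between group means were tested with limma 3.58.1 in R 4.3.3 in 1 model of all 18 arrays (4.13 prior and 10 residual degrees of freedom) with two-sided p-values and Benjamini-Hochberg adjustment over 13770 genes, called at an adjusted p under 0.05. The other probe sets come from a second fit over 24520 probe sets. Where a group is left with 1 array, limma borrows the spread of the rest. The code was tested on simulated data. The number of arrays limits the precision. Alternatives changed the probe set rule, filter, centring, variance model, replicate block and arrays used.

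The named genes are the 5 receptor genes, called genes of 5 fixed lists, and the 5 genes most correlated with each receptor gene. The receptor genes and lists were chosen with earlier results of these data known, and the averaged IL-4 contrast after the values were seen.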

Additional observations from a re-analysis of the deposited data

Results flagged for a closer look

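On the second Il2ra probe set, ex vivo memory array 4 read 6.03, while the other 3 arrays of its group read between 5.17 and 5.24; the gap was 0.91 of the range of the group. A gap past the flagging threshold, which is lower than this gap, arises by chance in about 1 of 20 groups. All 9 probe sets were screened in this group. On the probe set used for Il2ra the same array read 6.24, against 5.10 to 5.41.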

How the results depend on the processing

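The number of the 5 genes called changed by more than 1.5 times under these settings. The counts show only how the calls depend on the setting. Except for the averaged contrast, the share of all genes called is not given for them. For the counts below that leave out 1 array it is given, further up, only without memory medium array 2. For IL-4 in memory cells kept in IL-7 it was 1, and 0 with a trended and robust variance, 2 with a random replicate block, 4 with only the groups compared, 2 with both memory comparisons averaged and 3 when memory medium array 2 was also left out of that average. For IL-4 alone it was 1, and 0 with the trended and robust variance or with only the groups compared. For IL-7 culture of naive cells it was 2, and 1 with the mean of a gene's probe sets, no filter, centred arrays, or the trended and robust variance. For memory against naive cells it was 1, and ex vivo it became 0 with centred arrays and 2 with only the groups compared, and in both cytokines 0 with only the groups compared. For the IL-7 culture response of memory minus naive cells it was 0, and 2 with only the groups compared.

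Leaving out each array in turn, the counts ran from 0 to 3 for IL-4 in memory cells with and without IL-7, for memory against naive cells in both cytokines, for IL-7 culture of memory and of naive cells, for medium culture, for IL-7 alone and for the interaction. They ran from 0 to 1 for IL-4 in naive cells, for memory against naive cells ex vivo and in IL-7, and for the IL-4 and IL-7 culture responses of memory minus naive cells. IL-7 added to IL-4 stayed at 0.

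Some differences changed sign, none of them called with all arrays. With the mean of probe sets, Il2rb for memory against naive cells in IL-7 was -0.011 and Il15ra after IL-7 culture of naive cells 0.025, and the averaged IL-4 difference of Il21r was -0.071. Leaving out arrays, these 2 ran from -0.37 to 0.50 and from -0.71 to 0.23. Il21r for memory against naive cells ex vivo ran from -0.34 to 0.22, and Il2ra for IL-4 in naive cells from -1.85 to 1.68. For IL-7 added to IL-4, Il15ra ran from -0.13 to 0.32 and Il21r from -0.20 to 0.061. For IL-4 alone, Il7r ran from -1.14 to 0.38, Il2rb from -1.74 to 0.69 and Il21r from -2.47 to 0.85. For medium culture, Il7r ran from -0.40 to 1.13, Il2rb from -2.18 to 0.25 and Il21r from -2.90 to 0.42. For IL-7 alone, Il7r ran from -0.12 to 1.41, Il2ra from -0.97 to 0.35, Il2rb from -2.24 to 0.19 and Il21r from -3.21 to 0.11, and the interaction of Il21r ran from -0.18 to 3.14. The cause of these changes was not tested.

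Of 841 values of single genes under the alternatives, 738 kept direction and side of the threshold, 45 lost the call, 36 gained it and 22 changed sign. Same-numbered arrays deviated from their group means with correlations from -0.125 to 0.511. Between cultured groups of a cell type, memory medium left out, these were 0.251 to 0.511. The labels do not say whether the numbers mark pairs, and they were not taken as pairs in the main model. With a fixed replicate block within cell type, Il7r lost its call after IL-7 culture of memory cells (adjusted p = 0.0769 by limma). The other calls of the 5 genes in comparisons within a cell type were kept. The random block had a consensus correlation of 0.0981. With 2 arrays in most groups, differences under about 1 for Il15ra and Il7r, and under about 3 for Il2ra, mostly missed the threshold. Some larger ones missed it too, so these sizes are no limit of detection. With IL-4 in memory cells kept in IL-7 these were -1.24 for Il7r and 1.02 for Il15ra (adjusted p = 0.0933 and 0.0683 by limma). For Il2ra the IL-4 response of memory minus naive cells, 4.00, also missed it (adjusted p = 0.342).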
